A study of Mus musculus with 4 samples.

Results

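The genes of the mitogen-activated protein kinase (MAPK) cascades and of the dual-specificity phosphatases were described in mouse skin with and without the ubiquitin ligase Itch. Members were taken by symbol alone: every gene named Map4k, Map3k, Map2k, Mapk, Mapkapk or Dusp followed only by a number, together with Tab1, Tab2 and Tab3. This gave 73 genes of the 39179 in the files, made up of 5 Map4k, 18 Map3k, 3 Tab, 7 Map2k, 13 Mapk, 3 Mapkapk and 24 Dusp genes. The low-count filter of the test kept 68 of them. The data were gene counts of 4 RNA sequencing libraries from skin of C57BL/6 mice. Skin of wild-type (WT) mice gave 2 libraries, and lesional skin of Itch-/- mice (knockout, KO) gave the other two. Every sample carries the phenotype label inflammation, the WT skin too. The labels give no age or sex, do not say whether libraries of a genotype came from different animals, and do not say from which body site the WT skin came, so the tests measure the spread between these libraries.

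A MAPK cascade passes a signal from kinase to kinase. MAP4 kinases and adaptors switch on MAP3 kinases, which phosphorylate MAP2 kinases, which in turn phosphorylate the MAP kinases ERK, JNK and p38, and MAPK-activated protein kinases such as MK2 act below them. Dual-specificity phosphatases remove these phosphates, and several of them are immediate targets of the pathway that they shut off. In skin these cascades are known for keratinocyte growth and differentiation and for cytokine production. Itch is known to attach ubiquitin to Tab1, a partner of the MAP3 kinase TAK1 (gene Map3k7) and of p38-alpha, and JNK is known to activate Itch by phosphorylation. These are events at the protein level, and the values given here are messenger RNA levels.

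Library depth was even, between 15144957 and 16008351 gene reads. Itch itself stood at 96.7 and 103 CPM in WT skin but 11.7 and 11.7 CPM in KO skin (CPM, counts per megaread at TMM-scaled library sizes), on the labelled side in every library, with a log2 fold change of -3.09 ± 0.16 (SE). Its adjusted p was 0.0509 in edgeR's quasi-likelihood test and 1.77e-37 in DESeq2. Thus even Itch did not pass an adjusted p of 0.05 in edgeR. WT replicate 1 stood apart from the other libraries in tissue make-up. The summed level of 12 skeletal muscle markers was 16473 and 2586 CPM in WT skin and 1326 and 1109 CPM in KO skin, and that of 11 hair shaft markers was 9.33 and 1559.9 CPM in WT skin and 2977 and 2408 CPM in KO skin. The 12 macrophage and monocyte markers, all of them higher in both knockouts, summed to 273 and 300.4 CPM in WT skin and 2985 and 2231 CPM in KO skin. Fibroblast markers (8 of 8 higher in both knockouts) summed to 2219 and 3421 CPM in WT skin and 14148 and 12751 CPM in KO skin, and wound keratinocyte markers (8 of 8) to 814 and 2498 CPM in WT skin and 8469 and 8736 CPM in KO skin. Basal keratinocyte markers, which check the labelled tissue, summed to 10446 and 8237 CPM in WT skin and 8159 and 8667 CPM in KO skin. Of these 8 markers, 4 were lower and 1 was higher in both knockouts. Suprabasal keratinocyte markers (7 of 8 lower in both knockouts) summed to 12449 and 13722 CPM in WT skin and 8670.0 and 10189 CPM in KO skin, on the same side as lower members such as Map3k9, Map4k3 and Dusp18, and their part in those values was not tested. Of 8 neutrophil markers 7 were higher in both knockouts, and Ly6g was at 0 in 1 library. In bulk skin, fewer cells of a type and less RNA per cell cannot be told apart. By 5 sex-linked transcripts the WT libraries were female and the knockout libraries male, so genotype and sex cannot be told apart either.

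Most members differed modestly between the genotypes. Of 68 tested members, 20 had both knockout libraries above both WT libraries and 27 had both below, that is 29.4% and 39.7%. Over all 16651 genes tested the shares were 31.2% above and 30.0% below. The median log2 fold change (knockout over WT) of the members was -0.18, against 0.01 over all genes, and 58 of the 68 (85.3%) lay within 1 log2 unit of 0, against 79.3% of all genes. No member passed an adjusted p of 0.05 in edgeR's quasi-likelihood test, where 0.00601% of all genes passed, and the smallest adjusted p was 0.0806, for Map3k9. An unadjusted p under 0.05 was found for 5 members with positive and 12 with negative fold changes (7.35% and 17.6% of those tested), beside 12.0% and 10.9% of all genes. DESeq2 called 3 members higher, Dusp1, Map4k1 and Map2k1, and 5 lower, Map3k9, Map4k3, Dusp13, Dusp18 and Dusp27, where it called 7.83% of all genes higher and 6.16% lower. Limma-voom called 0, with 15 members at an unadjusted p under 0.05, as had 21.5% of all genes. These counts rested on single libraries: edgeR passed 1 member without WT replicate 1 (Map3k9, beside 7.55% of all genes) and 25 without WT replicate 2 (beside 31.5% of all genes). In these fits the single WT library is given the spread of the knockouts. Without either knockout library, 0 members and 0 other genes passed. Below, the ± of a log2 fold change is its standard error, and adjusted p is that of edgeR's quasi-likelihood test with Benjamini-Hochberg adjustment unless another tool is named.

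**Figure D1:**
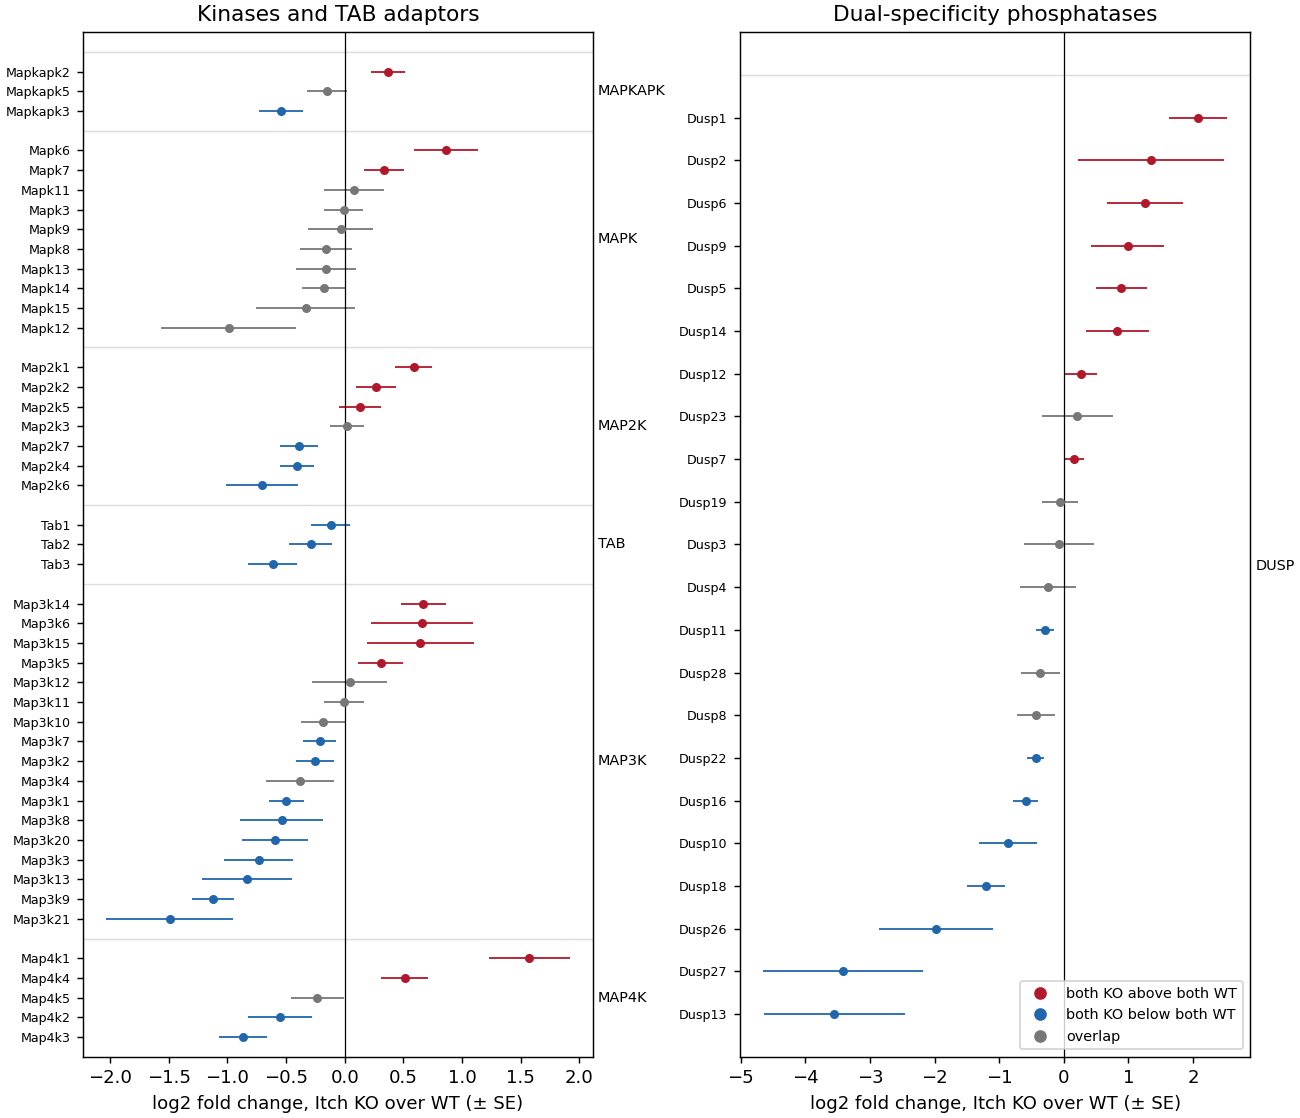
Each point is the log2 fold change of 1 tested member, knockout over WT, with its standard error as a bar; the left panel holds kinases and TAB adaptors by cascade level and the right panel the phosphatases. 1 tested member is not drawn. Red points have both knockout libraries above both WT libraries, blue points have both below, and the phosphatases reach from -3.55 to 2.08 while the kinases lie between -1.49 and 1.58.

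At the top of the cascade, Map4k1 was higher and Map4k3 lower in both knockout libraries. Map4k1 (ENSMUSG00000037337, GRCm38 chr7:28982050-29003279, plus strand) encodes HPK1, a kinase of blood-derived cells. It stood at 3.67 and 4.23 CPM in WT skin but 14.1 and 9.49 CPM in KO skin. Both knockouts lay above both WT libraries, by 1.58 ± 0.34 log2 units (adjusted p = 0.117 in edgeR and 0.00759 in DESeq2). The macrophage and monocyte sum was also higher in both, and the T cell marker sum was 67.9 and 41.0 CPM in WT skin and 77.1 and 62.9 CPM in KO skin, with 5 of 8 genes higher in both knockouts; the part of blood-derived cells in the Map4k1 value was not tested. Map4k3, encoding GLK, stood at 114 and 84.7 CPM in WT skin but 55.8 and 53.2 CPM in KO skin (-0.87 ± 0.20 log2 units, adjusted p = 0.129). Map4k4, which encodes a kinase linked to JNK and to cell migration, stood at 178 and 237 CPM (WT) versus 296 and 295 CPM (KO) (0.51 ± 0.20 log2 units, adjusted p = 0.232). Map4k2 stood at 53.3 and 36.3 CPM (WT) versus 34.4 and 26.8 CPM (KO), both knockouts being below both WT libraries (adjusted p = 0.304), and for Map4k5, at 75.1 and 57.8 CPM (WT) versus 63.5 and 49.6 CPM (KO), the groups overlapped.

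Among the MAP3 kinases, 9 of 17 tested had both knockouts below both WT libraries and 4 had both above (52.9% and 23.5%, beside 30.0% and 31.2% of all genes). Map3k9 (ENSMUSG00000042724, GRCm38 chr12:81721010-81781175, minus strand) encodes MLK1, a mixed-lineage kinase upstream of JNK. It stood at 107 and 89.8 CPM in WT skin but 48.4 and 41.9 CPM in KO skin. The knockout values were close together and well apart from both WT values, at -1.12 ± 0.18 log2 units (adjusted p = 0.0806 in edgeR and 0.000141 in DESeq2). The log2 fold change of Map3k9 was -0.99 without WT replicate 1 and -1.25 without WT replicate 2. It was -1.25 without knockout replicate 1 and -1.02 without knockout replicate 2. Map3k21, a low-level relative of the same mixed-lineage group, stood at 1.53 and 0.821 CPM (WT) versus 0.442 and 0.382 CPM (KO) (-1.49 ± 0.54 log2 units, adjusted p = 0.213).

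Map3k1 encodes MEKK1, a kinase that carries its own ubiquitin ligase domain and lies upstream of JNK. It stood at 106 and 97.5 CPM in WT skin but 75.3 and 68.7 CPM in KO skin (-0.50 ± 0.15 log2 units, adjusted p = 0.173). Map3k14, which encodes NIK, the kinase of the non-canonical NF-kB pathway, went the other way. It stood at 23.4 and 20.1 CPM in WT skin but 33.5 and 35.7 CPM in KO skin (0.67 ± 0.19 log2 units, adjusted p = 0.162), so both knockouts exceeded both WT libraries by more than the gap inside either group. Map3k8 encodes Tpl2, the kinase that links Toll-like and TNF receptors to ERK in macrophages. Its level was 28.2 and 25.3 CPM in WT skin but 23.9 and 12.9 CPM in KO skin (log2 fold change -0.54, adjusted p = 0.405). Both knockouts were below both WT libraries, and knockout replicate 2 was the lowest. The macrophage and monocyte sum was higher in both knockouts, and its part in the Map3k8 value was not tested.

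The stress kinases Map3k5 and Map3k6 (ASK1 and ASK2) were somewhat higher in both knockouts. Map3k5 stood at 35.8 and 45.4 CPM (WT) versus 49.5 and 50.8 CPM (KO) (adjusted p = 0.382). Map3k6 stood at 24.3 and 57.0 CPM (WT) versus 61.3 and 67.1 CPM (KO), where WT replicate 2 was close to the knockouts and WT replicate 1 was low. Its log2 fold change of 0.66 (adjusted p = 0.4075) was 0.17 without WT replicate 1 and 1.40 without WT replicate 2. Map3k3 stood at 80.5 and 51.4 CPM (WT) versus 45.0 and 34.3 CPM (KO) and Map3k20, whose product ZAK senses stalled ribosomes, at 191 and 116 CPM (WT) versus 101 and 103 CPM (KO), with WT replicate 1 the highest library for both. The remaining tested MAP3 kinases had log2 fold changes between -0.83 (Map3k13) and 0.65 (Map3k15) with adjusted p from 0.280 to 0.983.

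In the TAK1 module and the p38 arm below it, Tab1, Map3k7, Map2k3, Mapk14 and Mapk13 all had log2 fold changes between -0.21 and 0.02, and Mapk11 stood at 0.08. Others of the arm lay further from 0: Tab2, Tab3, Map2k6, Mapk12 and Mapkapk3 between -0.29 and -0.99, and Mapkapk2 at 0.37. Tab1 (ENSMUSG00000022414, GRCm38 chr15:80133127-80161707, plus strand), the activator subunit of TAK1 and the described Itch target, stood at 36.5 and 37.7 CPM in WT skin, then 35.5 and 32.8 CPM in KO skin. The knockouts were slightly below the WT libraries, by a difference (-0.12 ± 0.17 log2 units, adjusted p = 0.682) that was smaller than its error. Tab2, one of a pair of adaptors that bind ubiquitin chains and bring TAK1 to them, stood at 243 and 190.2 CPM in WT skin, then 181 and 173 CPM in KO skin (-0.29 ± 0.18 log2 units, adjusted p = 0.387), with WT replicate 1 above the rest. Tab3, the X-linked partner of that pair, stood at 43.9 and 38.7 CPM in WT skin but 30.1 and 23.8 CPM in KO skin (-0.62 ± 0.21 log2 units, adjusted p = 0.195), with both knockouts lower. TAK1 itself, Map3k7, stood at 112 and 115 CPM (WT) versus 101 and 94.9 CPM (KO) (-0.21 ± 0.14 log2 units, adjusted p = 0.401). Per length of exon (CPM per kb), the summed level of the 3 Tab genes was 57.0 and 48.1 CPM per kb in WT skin and 44.5 and 41.6 CPM per kb in KO skin. Tab2 accounted for 69.4% and 64.5% of it in WT skin and 66.1% and 67.9% in KO skin, and Tab1 for 19.1% and 23.4% of it in WT skin and 23.7% and 23.5% in KO skin.

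Of the MAP2 kinases that phosphorylate p38, Map2k3 (MKK3) stood at 184 and 177 CPM in WT skin, then 176 and 191 CPM in KO skin (0.02 ± 0.15 log2 units, adjusted p = 0.935), so the groups overlapped. Map2k6 (MKK6), another of them, had a mean of 3.24 CPM per kb over the 4 libraries, beside 54.9 CPM per kb for Map2k3. Its values were 16.5 and 11.2 CPM (WT) versus 8.78 and 8.16 CPM (KO), with WT replicate 1 highest (-0.71 ± 0.31 log2 units, adjusted p = 0.259). The p38-alpha gene Mapk14 (ENSMUSG00000053436, GRCm38 chr17:28691329-28748406, plus strand) stood at 176 and 142 CPM in WT skin, then 149.6 and 132 CPM in KO skin (-0.18 ± 0.18 log2 units, adjusted p = 0.585). Knockout replicate 1 was above WT replicate 2, so the groups overlapped there too. Mapk13, which encodes p38-delta, a form known from epidermis, stood at 141 and 219 CPM (WT) versus 163 and 159 CPM (KO) (-0.16 ± 0.26 log2 units, adjusted p = 0.728), with WT replicate 1 lowest and WT replicate 2 highest of the 4. Mapk11 (p38-beta) stood at 15.9 and 22.0 CPM (WT) versus 20.8 and 19.3 CPM (KO) (log2 fold change 0.08, adjusted p = 0.865).

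Mapk12, encoding p38-gamma, a form abundant in skeletal muscle, was high in a single library. It stood at 54.1 and 17.5 CPM in WT skin but 18.6 and 17.4 CPM in KO skin. Its log2 fold change of -0.99 ± 0.57 (adjusted p = 0.359) was 0.04 without WT replicate 1 and -1.59 without WT replicate 2. The muscle marker sum was likewise highest in WT replicate 1; its part in the Mapk12 value was not tested. Summed over the 4 p38 genes, the level per length was 105 and 114 CPM per kb in WT skin and 98.1 and 91.7 CPM per kb in KO skin. Mapk13 made up 42.7% and 60.9% of it in WT skin and 52.8% and 54.9% in KO skin. Mapk14 made up 38.5% and 28.4% of it in WT skin and 34.8% and 32.8% in KO skin, so the shares of both overlapped between the genotypes.

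**Figure D2:**
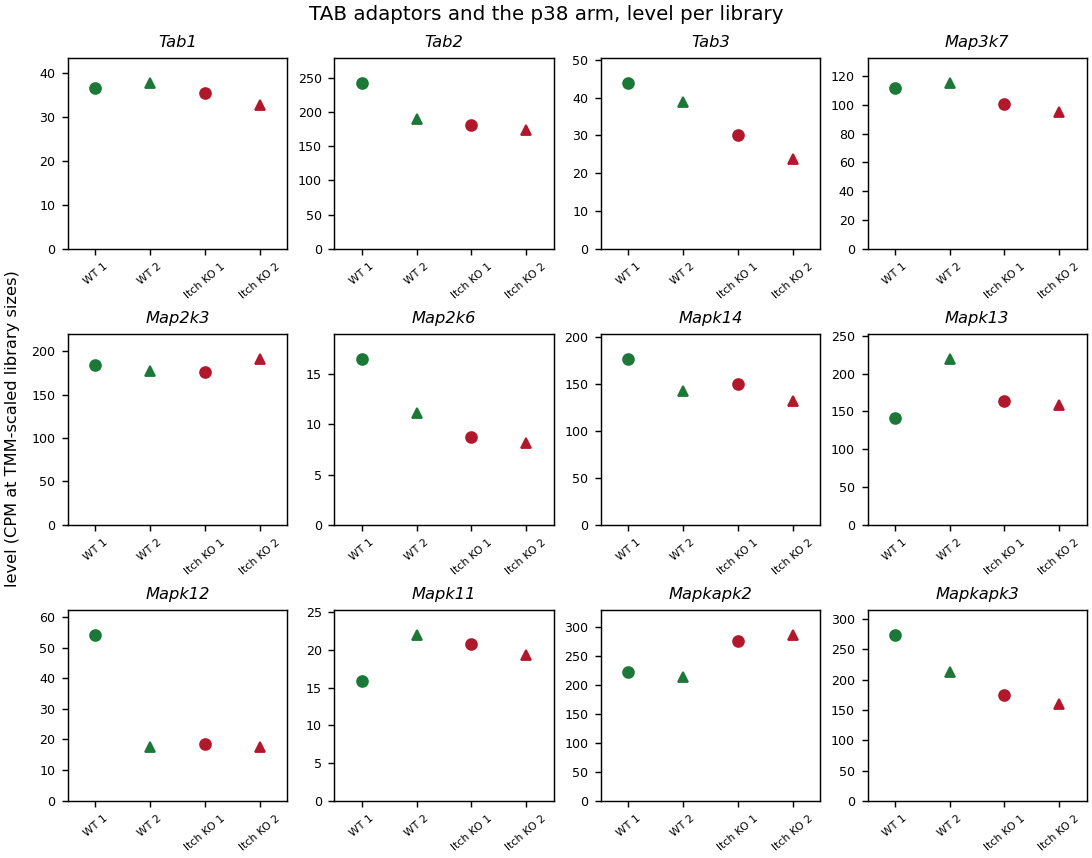
Level in CPM (y axis from 0) of the TAB adaptors, TAK1 and the p38 arm in each of the 4 libraries (x axis), WT in green and knockout in red, circles for replicate 1 and triangles for replicate 2. Tab1 and Map2k3 are near level in all 4 libraries, Mapk12 is high in WT replicate 1 alone, and Mapkapk2 and Mapkapk3 lie on opposite sides in the knockouts.

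Below p38, the genes of MK2 and MK3 differed in opposite directions. Mapkapk2 encodes MK2, which stabilises cytokine messenger RNAs by phosphorylating the RNA-binding protein TTP. It stood at 221 and 214 CPM in WT skin but 276 and 286 CPM in KO skin (0.37 ± 0.15 log2 units, adjusted p = 0.233), both knockouts being higher. Mapkapk3, encoding the close relative MK3, stood at 274 and 213 CPM in WT skin but 174 and 160.2 CPM in KO skin (-0.54 ± 0.19 log2 units, adjusted p = 0.204), both knockouts being lower. The summed level per length of the 3 Mapkapk genes was 147 and 129 CPM per kb in WT skin and 142 and 144 CPM per kb in KO skin. Mapkapk2 took 49.6% and 54.3% of it in WT skin and 64.0% and 65.2% in KO skin. Mapkapk3 took 33.6% and 29.7% of it in WT skin and 22.2% and 20.1% in KO skin, so the shares of neither gene overlapped between the genotypes. Mapkapk5 stood at 78.7 and 66.0 CPM (WT) versus 62.6 and 67.7 CPM (KO), with overlapping groups, and its reads are uncertain because 56.5% of its exon length overlaps Adam1a on the same strand.

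In the ERK arm, both MAP2 kinase genes were higher in the knockouts. Map2k1 (MEK1) stood at 76.1 and 67.9 CPM in WT skin but 103 and 114 CPM in KO skin. Both knockouts exceeded both WT libraries, by 0.59 ± 0.16 log2 units (adjusted p = 0.152 in edgeR and 0.0483 in DESeq2). Map2k2 (MEK2) stood at 156 and 174 CPM (WT) versus 182 and 215 CPM (KO) (0.27 ± 0.17 log2 units, adjusted p = 0.389). Mapk3 (ERK1), a kinase that they phosphorylate, stood at 278 and 267 CPM (WT) versus 249 and 292 CPM (KO), with overlapping groups (log2 fold change -0.01, adjusted p = 0.982). Per length, Mapk3 had the highest mean level of all 73 members, 120.4 CPM per kb.

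In the JNK arm, both MAP2 kinase genes lay lower in the knockouts. Map2k4 (MKK4) stood at 262 and 254 CPM in WT skin but 192 and 197 CPM in KO skin (-0.41 ± 0.14 log2 units, adjusted p = 0.203). Map2k7 (MKK7) stood at 98.3 and 82.4 CPM in WT skin but 69.1 and 68.9 CPM in KO skin (-0.39 ± 0.16 log2 units, adjusted p = 0.250), and for both genes the knockouts were below both WT libraries and close to each other. The JNK genes themselves overlapped: Mapk8 (JNK1) stood at 37.9 and 32.4 CPM (WT) versus 35.8 and 27.1 CPM (KO) (-0.16 ± 0.22 log2 units, adjusted p = 0.690), and Mapk9 (JNK2) at 57.8 and 35.8 CPM (WT) versus 47.7 and 43.7 CPM (KO) (-0.03 ± 0.28 log2 units, adjusted p = 0.950). Mapk10 (JNK3), a form of the nervous system, had at most 3 counts in any library and was not tested. Per length, the summed level of the 7 MAP2 kinase genes was 199.97 and 191 CPM per kb in WT skin and 185 and 200.2 CPM per kb in KO skin, so WT and knockout sums overlapped. Map2k1 held 11.2% and 10.5% of it in WT skin and 16.3% and 16.8% in KO skin. Map2k4 held 28.1% and 28.5% of it in WT skin and 22.2% and 21.1% in KO skin, and for both genes the shares in WT and KO skin were apart.

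**Figure D3:**
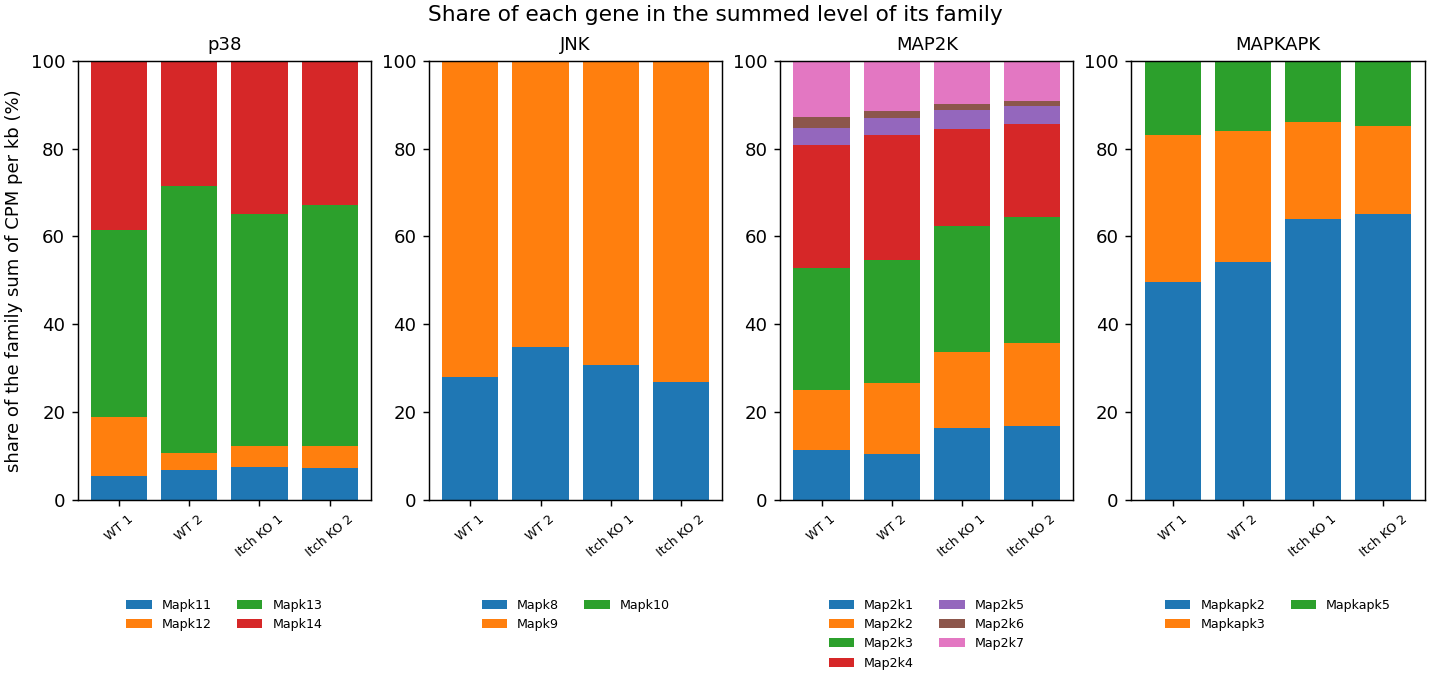
Stacked bars give the share (percent, y axis) of each gene in the summed CPM per kb of its family, 1 bar per library, for p38, JNK, MAP2K and MAPKAPK genes. Mapkapk2 takes 64.0% and 65.2% in the knockouts against 49.6% and 54.3% in WT, while the Mapk9 share of the JNK genes lies between 64.9% and 73.1% with the genotypes overlapping.

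Of the other MAP kinases, Mapk6 and Mapk7 were higher in both knockouts. Mapk6 encodes ERK3, an unstable kinase that lacks the usual activation motif. It stood at 96.7 and 143 CPM in WT skin but 249 and 189 CPM in KO skin (0.87 ± 0.27 log2 units, adjusted p = 0.179), with all libraries in separate places and the WT values lowest. Mapk7 (ERK5), the target of Map2k5, stood at 25.7 and 27.6 CPM (WT) versus 33.4 and 33.8 CPM (KO) (0.33 ± 0.17 log2 units, adjusted p = 0.316), and Map2k5 (MEK5) at 24.9 and 23.8 CPM (WT) versus 26.2 and 27.1 CPM (KO) (adjusted p = 0.680). Mapk15, a low-level gene, had overlapping groups at 1.73 and 2.59 CPM (WT) versus 1.52 and 1.91 CPM (KO).

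The dual-specificity phosphatases spanned a wider range of fold changes than the kinases, in both directions. Of 22 tested, 8 had both knockouts above both WT libraries and 8 had both below, 36.4% each way, near the 31.2% and 30.0% of all genes. The median size of their log2 fold change was 0.71, against 0.38 for the 43 tested kinases and 0.42 over all genes. Dusp1 (ENSMUSG00000024190, GRCm38 chr17:26505590-26562128, minus strand) encodes MKP-1, an early-response phosphatase of p38 and JNK that limits cytokine production. It stood at 68.8 and 35.5 CPM in WT skin but 276 and 164 CPM in KO skin. Both knockouts were far above both WT libraries, and libraries of the same genotype differed by 1.94-fold in WT and 1.68-fold in the knockouts. The log2 fold change was 2.08 ± 0.45, with adjusted p = 0.117 in edgeR and 0.000168 in DESeq2. With a single library left out, the log2 fold change ran from 1.64 (without knockout replicate 1) to 2.63 (without WT replicate 1). The summed macrophage, fibroblast and wound keratinocyte markers were also higher in both knockouts, and their part in the Dusp1 value was not tested.

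The promoters of Dusp1 and Dusp5 are shown as examples that hold motifs of factors that MAP kinases act on, and that of Map3k9 because this gene had the smallest p of the members. Windows of other members, named below, held such motifs too and are not shown. Among those, Dusp13, Map2k6 and Map2k7 lay lower in both knockouts, Dusp8 and Map3k10 overlapped, and Mapk10 was not tested. Each run is the 250 bases before the RefSeq start (GRCm38.p6), 5′ to 3′ on the gene's strand. Capitals mark a CRE (TGACGTCA, the site of CREB and ATF factors) or CArG boxes (the site of serum response factor). Dusp1 lies at chr17:26508473-26508722, minus strand, Dusp5 at chr19:53528895-53529144, plus strand and Map3k9 at chr12:81781171-81781420, minus strand.
Dusp1: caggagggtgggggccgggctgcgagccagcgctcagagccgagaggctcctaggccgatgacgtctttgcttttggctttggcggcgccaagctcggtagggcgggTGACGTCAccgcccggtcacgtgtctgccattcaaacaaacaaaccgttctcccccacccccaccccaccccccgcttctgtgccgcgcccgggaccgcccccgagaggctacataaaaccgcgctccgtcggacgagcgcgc
Dusp5: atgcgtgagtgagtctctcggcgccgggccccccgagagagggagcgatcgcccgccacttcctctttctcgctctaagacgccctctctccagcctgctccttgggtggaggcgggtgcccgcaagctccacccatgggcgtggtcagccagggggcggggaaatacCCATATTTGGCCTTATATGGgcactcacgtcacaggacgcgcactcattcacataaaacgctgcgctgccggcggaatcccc
Map3k9: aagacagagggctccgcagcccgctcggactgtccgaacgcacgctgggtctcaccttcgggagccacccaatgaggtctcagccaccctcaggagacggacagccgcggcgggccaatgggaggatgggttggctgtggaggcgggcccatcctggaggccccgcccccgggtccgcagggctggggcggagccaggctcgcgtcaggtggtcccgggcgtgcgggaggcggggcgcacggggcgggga

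The Dusp1 window held 1 CRE, from base 143 to base 136 before the start. The Dusp5 window held 2 CArG boxes side by side, from base 82 to base 63 before the start, and the Map3k9 window held no match. Both strands were searched for the CRE, the CArG box and the AP-1 motif (TGANTCA), and no match of 1 motif can overlap a match of another. RefSeq windows were found for 57 of the 73 members, 74 windows in all since some genes have several starts. A CRE was in 3 of these 74 windows (4.05%; Dusp1, Dusp8 and Mapk10), against 1.55% of 32851 windows of all genes. A CArG box was in 1 (1.35%, against 1.47%), and an AP-1 motif in 4 (5.41%, against 6.75%; Dusp13, Map2k6, Map2k7 and Map3k10). A match describes the letters only. The RefSeq start of Dusp1 lies inside a longer gene model in the annotation used for the counts. Dusp5 and Map3k9 were chosen for display after the search was run.

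Of the phosphatases taken here as acting on ERK, Dusp2, Dusp5, Dusp6, Dusp7 and Dusp9 were higher in both knockouts, and Dusp4 overlapped. Over all genes, 31.2% were higher in both knockouts. For the phosphatases that were higher, WT replicate 2 lay nearer to the knockouts than WT replicate 1 did. Dusp6 encodes MKP-3, the cytoplasmic ERK phosphatase of the negative feedback loop. It stood at 24.7 and 74.5 CPM in WT skin but 95.5 and 141 CPM in KO skin (1.25 ± 0.59 log2 units, adjusted p = 0.287). WT replicate 2 had 3.02 times the level of WT replicate 1, and the log2 fold change was 0.66 without WT replicate 1 and 2.26 without WT replicate 2. Dusp5, a nuclear ERK phosphatase, stood at 19.6 and 42.1 CPM in WT skin but 58.1 and 56.5 CPM in KO skin (0.89 ± 0.40 log2 units, adjusted p = 0.270). Without WT replicate 1 its log2 fold change was 0.44, and without WT replicate 2 it was 1.54. Dusp2 (PAC-1), a phosphatase known from activated immune cells, stood at 1.87 and 23.0 CPM in WT skin but 28.6 and 35.1 CPM in KO skin (1.35 ± 1.13 log2 units, adjusted p = 0.503). The low value was that of WT replicate 1 alone, and without that library the log2 fold change was 0.47, against 4.08 without WT replicate 2. For all 3 genes the log2 fold change was larger without WT replicate 2 than without WT replicate 1. In these fits the single WT library is given the spread of the knockouts. The hair shaft marker sum was likewise far lower in WT replicate 1 than in the other libraries, and its part in the Dusp2, Dusp5 and Dusp6 values was not tested. Dusp7, the abundant relative of Dusp6, stood at 127 and 144 CPM (WT) versus 149 and 153 CPM (KO) (adjusted p = 0.555), the X-linked Dusp9 at 0.933 and 2.34 CPM (WT) versus 3.60 and 2.93 CPM (KO) (adjusted p = 0.349) and the nuclear Dusp4 (MKP-2) at 7.27 and 13.4 CPM (WT) versus 7.07 and 10.4 CPM (KO), where the groups overlapped (adjusted p = 0.760).

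Dusp8, Dusp10 and Dusp16, which prefer JNK and p38, had negative log2 fold changes. Dusp1, described above as a phosphatase of p38 and JNK, was higher in both knockouts. Dusp16 (MKP-7) stood at 112 and 89.5 CPM in WT skin but 61.4 and 73.0 CPM in KO skin (-0.59 ± 0.20 log2 units, adjusted p = 0.194), with both knockouts lower. Dusp10 (MKP-5) stood at 29.1 and 13.3 CPM in WT skin but 10.4 and 13.0 CPM in KO skin (-0.86 ± 0.45 log2 units, adjusted p = 0.317). WT replicate 2 was level with knockout replicate 2, and WT replicate 1 stood above the rest. The log2 fold change was thus -0.19 without WT replicate 1 and -1.32 without WT replicate 2. For Dusp8 the groups overlapped, at 44.3 and 30.5 CPM (WT) versus 23.1 and 32.4 CPM (KO) (adjusted p = 0.420). Among the 10 MAP kinase phosphatases, of ERK, JNK or p38 (Dusp1, Dusp2 and Dusp4 to Dusp10, with Dusp16), 6 lay higher in both knockouts, 2 lower and 2 overlapped. That is 60.0% above and 20.0% below, beside 31.2% and 30.0% of all genes.

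**Figure D4:**
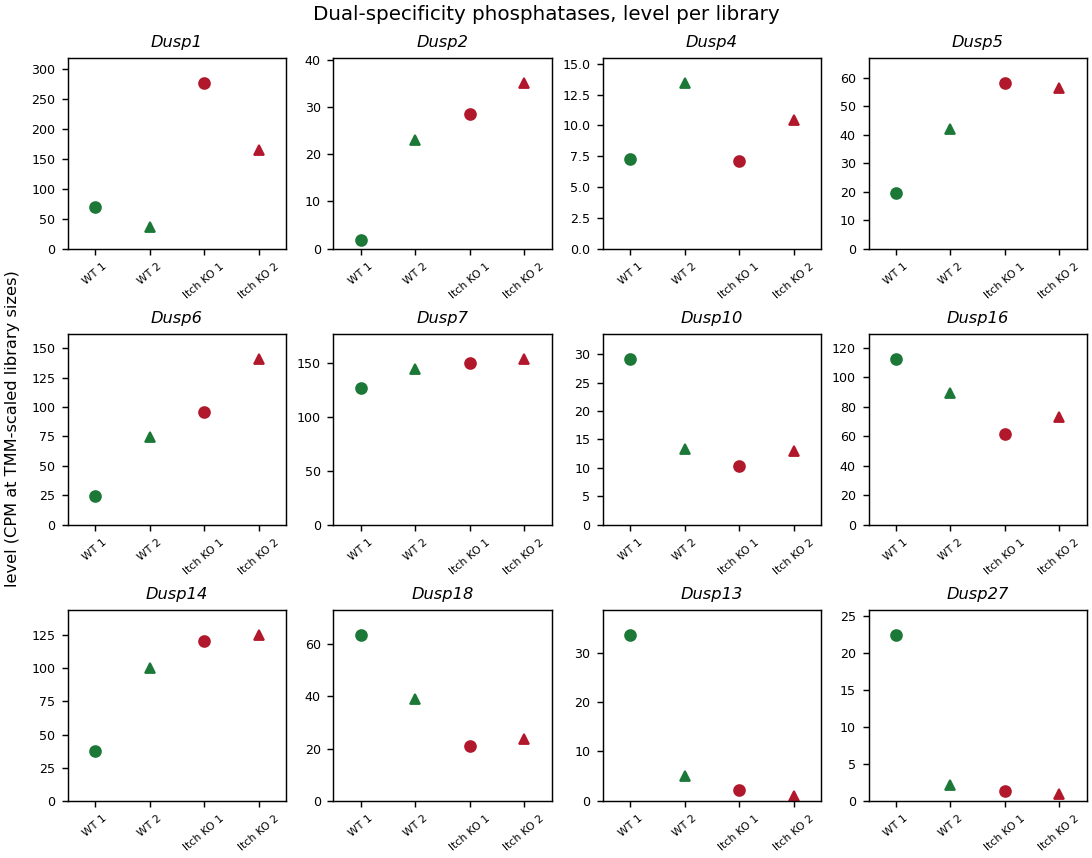
Level in CPM (y axis from 0) of 12 dual-specificity phosphatase genes in each of the 4 libraries (x axis), WT in green and knockout in red, circles for replicate 1 and triangles for replicate 2. Dusp1 separates the genotypes, while Dusp2, Dusp5, Dusp6 and Dusp14 are low in WT replicate 1 and Dusp13 and Dusp27 are high in it.

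The atypical phosphatases, which lack the MAP kinase binding domain, numbered 12 among the tested genes: 6 lay below and 2 above in both knockouts (50.0% and 16.7%, beside 30.0% and 31.2% of all genes), and 4 overlapped. Dusp18 stood at 63.4 and 39.0 CPM in WT skin but 20.9 and 23.5 CPM in KO skin (-1.20 ± 0.29 log2 units, adjusted p = 0.136). Dusp22, which encodes JKAP, a regulator of JNK and of T cell receptor signalling, stood at 128 and 131 CPM in WT skin but 97.3 and 93.9 CPM in KO skin (-0.44 ± 0.14 log2 units, adjusted p = 0.181), with libraries of the same genotype close together. Dusp11, which acts on RNA, stood at 195 and 200.03 CPM (WT) versus 162 and 161 CPM (KO) (adjusted p = 0.292). Dusp14 (MKP-6) stood at 37.9 and 100.1 CPM (WT) versus 120.4 and 125 CPM (KO) (0.83 ± 0.49 log2 units, adjusted p = 0.366), with WT replicate 1 alone low. Its log2 fold change was 0.29 without that library and 1.69 without WT replicate 2. Dusp12, at 10.3 and 9.97 CPM (WT) versus 11.3 and 13.1 CPM (KO), is uncertain because 49.8% of its exon length overlaps other genes. Dusp3, Dusp19, Dusp23 and Dusp28 overlapped between the groups, with log2 fold changes from -0.37 to 0.21. Those of Dusp3 and Dusp23 rested on the WT library used: they were 0.89 and 1.16 without WT replicate 1, and -0.64 and -0.36 without WT replicate 2.

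The lowest fold changes of all members belonged to 3 phosphatases that were high in WT replicate 1. Dusp13, a gene of muscle and testis phosphatases, stood at 33.6 and 5.11 CPM in WT skin but 2.27 and 1.02 CPM in KO skin (-3.55 ± 1.09 log2 units, adjusted p = 0.178). Dusp27, a catalytically inactive relative found in striated muscle, stood at 22.4 and 2.15 CPM in WT skin but 1.33 and 0.956 CPM in KO skin (-3.42 ± 1.23 log2 units, adjusted p = 0.213). Dusp26 stood at 13.5 and 2.78 CPM in WT skin but 1.52 and 2.61 CPM in KO skin (-1.98 ± 0.87 log2 units, adjusted p = 0.266). WT replicate 1 had 6.57, 10.4 and 4.87 times the level of WT replicate 2 for Dusp13, Dusp27 and Dusp26. Without WT replicate 1 the log2 fold changes were -1.63, -0.91 and -0.43 in that order. Without WT replicate 2 they were -4.35, -4.29 and -2.71. The skeletal muscle markers (9 of 12 lower in both knockouts, none at 0 in any library) followed the same order of WT libraries; their part in these values was not tested.

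The gap between the WT libraries was wide for phosphatases and narrow for kinases. Of the 22 tested phosphatases, 11 differed over 2-fold between WT replicates 1 and 2 on the log2(CPM + 0.1) scale, against 2 of the 43 tested kinases (Map3k6 and Mapk12), where 17.97% of all genes did so. WT replicate 1 was higher for Dusp3, Dusp10, Dusp13, Dusp23, Dusp26 and Dusp27, and WT replicate 2 for Dusp2, Dusp5, Dusp6, Dusp9 and Dusp14. Between the knockout libraries 1 phosphatase, Dusp13, and 0 kinases differed by that much, where 5.60% of all genes did. The median size of the log2 ratio between WT libraries was 1.03 for phosphatases, 0.28 for kinases and 0.39 for all genes. For 15 of 22 phosphatases and 20 of 43 kinases the WT libraries were further apart than the group means, which held for 48.02% of all genes. The difference between phosphatases and kinases in this respect was not tested.

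**Figure D5:**
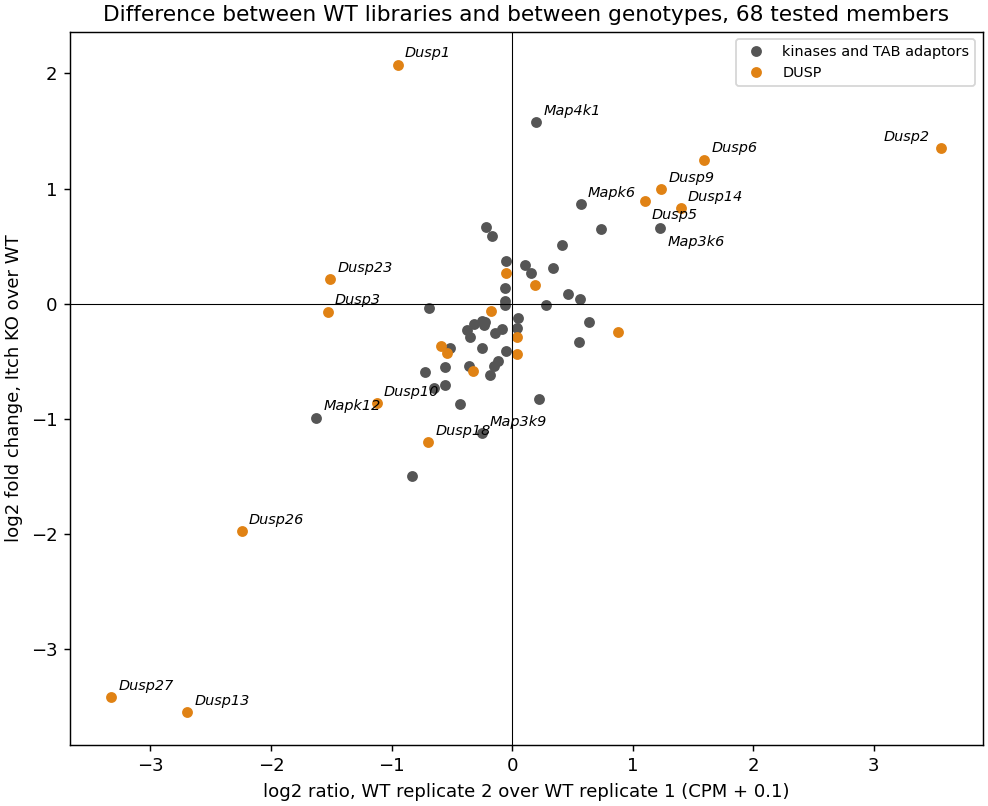
Each point is 1 of the 68 tested members, with the log2 ratio of WT replicate 2 over WT replicate 1 on the x axis and the log2 fold change of knockout over WT on the y axis; orange points are phosphatases and dark grey points kinases and TAB adaptors. The WT values enter both axes, so a slope is built in; Dusp1, Map4k1 and Map3k9 lie far from 0 on the y axis and within 1 log2 unit of 0 on the x axis.

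Other genes of the pathway, 72 that encode Ras and Raf components, adaptors, scaffolds, substrates and further phosphatases, lay on both sides in similar numbers. Of 71 tested, 27 lay above and 23 below in both knockouts (38.03% and 32.39%), 10 with positive and 6 with negative fold changes had an unadjusted p under 0.05 (14.1% and 8.45%), and 0 passed in edgeR, while DESeq2 called 6 higher and 3 lower. The shares of all genes were 31.2% above and 30.0% below, 12.0% and 10.9% at an unadjusted p under 0.05, and 7.83% and 6.16% of genes called by DESeq2, so the list lay near them. Their median log2 fold change was -0.07. Zfp36 encodes TTP, the RNA-binding substrate of MK2 that limits cytokine messages. It stood at 76.6 and 81.8 CPM in WT skin but 219 and 194 CPM in KO skin (1.38 ± 0.16 log2 units, adjusted p = 0.0624). Elk3, an ETS factor that works with serum response factor and is phosphorylated by ERK, stood at 30.7 and 27.9 CPM in WT skin but 91.3 and 68.3 CPM in KO skin (1.45 ± 0.21 log2 units, adjusted p = 0.0756). For both genes the knockouts were more than 2 times the WT libraries, and the WT libraries were close together. Both genes lay on the same side as the macrophage and fibroblast marker sums, whose part was not tested. The adaptor of Toll-like and interleukin-1 receptors, Myd88, stood at 47.1 and 53.6 CPM (WT) versus 92.0 and 101 CPM (KO) (0.94 ± 0.16 log2 units, adjusted p = 0.0877), and its partner kinase Irak4 at 18.4 and 17.7 CPM (WT) versus 33.0 and 35.9 CPM (KO) (0.93 ± 0.18 log2 units, adjusted p = 0.105). Lower in both knockouts were Mink1, a kinase related to Map4k4, at 162 and 131 CPM (WT) versus 93.6 and 76.6 CPM (KO) (-0.79 ± 0.20 log2 units, adjusted p = 0.141), and Spred2, an inhibitor of Ras to Raf signalling, at 57.9 and 44.7 CPM (WT) versus 28.9 and 30.2 CPM (KO) (-0.79 ± 0.20 log2 units, adjusted p = 0.143).

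Counts of 6 further members are less certain because between 8.63% and 19.3% of their exon length overlaps other genes: Map4k5, Map3k10, Map3k12, Map3k15, Dusp3 and Dusp13. The 5 members that were not tested had few counts in most or all libraries. Dusp21 had 0 counts in all 4 libraries. At a floor of 3 counts per library this allows a level of up to 0.187 to 0.198 CPM, here without TMM scaling. Map3k19 and Mapk10 had at most 3 counts in any library and Mapk4 at most 10. Dusp15 had 34 counts in WT replicate 1 and between 3 and 8 in the other libraries.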

How the data were processed

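The authors deposited raw read counts per Ensembl gene, 1 file per library. The submitters' processing notes name HTSeq 0.6.1, SAMtools 0.1.19, TopHat2 and CASAVA 1.8.2, and the build mm10 (GRCm38). The sources used here do not give the TopHat2 version, the annotation release or the strand setting, so genes that overlap others are uncertain. Special counter lines (no feature 5.68% to 7.45%, ambiguous 4.48% to 4.70% of reads) stayed out of all totals. Symbols, exon lengths and coordinates came from GENCODE vM21 (GRCm38), which held 37693 of 39179 identifiers, and promoter sequences from RefSeq (GRCm38.p6).

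All genes were fitted in R 4.3.3 with edgeR 4.0.16 (filterByExpr with minimum count 10, TMM, quasi-likelihood F test with legacy=TRUE and robust=TRUE, two-sided), and p-values were adjusted by Benjamini-Hochberg over 16651 genes. SE is the log2 fold change divided by the square root of F. CPM per kb divides CPM by the union of exons. Ratios of WT libraries used a pseudocount of 0.1. Alternatives were DESeq2 1.42.0, limma 3.58.1 voom, other scalings, no filter, legacy=FALSE, left-out libraries and a replicate block. The fit was tested on simulated counts. Libraries of a genotype differed by more than sampling noise (chi-square per degree of freedom 117 in WT and 24.9 in the knockouts).

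Members, gene lists and tests were chosen with earlier results of these data known. Values per library were given, by rule, for the p38 arm with its phosphatases, the ERK and JNK genes, the 4 members of each level with the smallest p (8 phosphatases), the 4 members with a mean of 5 CPM or more that differed most between WT libraries, and the 6 pathway genes with the smallest p. Other members were named to account for each role. Promoters came from members of this set, and no protein sequences were used here. 1 member enters the counts but is not reported here by itself.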

Additional observations from a re-analysis of the deposited data

How the results depend on the processing

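Counts of called members rested on the choice of tool and of WT library. DESeq2 called 8 members where edgeR called 0, and over all genes edgeR passed 69 with legacy=FALSE, 488 without the low-count filter and 0 with limma-voom in its place, against 1. Leaving out 1 library gave between 0 and 25 members past adjusted p, between 1 and 13 higher and between 1 and 25 lower members at unadjusted p, and between 4 and 15 higher and between 0 and 22 lower pathway genes. The highest counts came without WT replicate 2, and the smallest without a knockout library, and the same held over all genes tested. With library sizes alone 10 pathway genes were lower at unadjusted p, against 6, while over all genes 2085 were lower, against 1807. The cause was not tested.

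Genes near 0, and Mapk12, turned in sign. Map2k3 was at -0.0059 with library sizes alone, Mapk3 at 0.0194 without the low-count filter, and Mapk9 at 0.0033 without that filter and 0.0094 in limma-voom. With 1 library left out, log2 fold changes ran from -0.036 to 0.0648 for Map2k3, -0.1322 to 0.3283 for Mapk11, -1.5878 to 0.043 for Mapk12, -0.4462 to 0.1921 for Mapk13, -0.1267 to 0.0862 for Mapk3, -0.3898 to 0.0253 for Mapk8 and -0.3415 to 0.3525 for Mapk9. Of the other members, Map3k11 (-0.14 to 0.14), Map3k12 (-0.21 to 0.35), Dusp3 (-0.64 to 0.89), Dusp4 (-0.62 to 0.27), Dusp19 (-0.15 to 0.03) and Dusp23 (-0.36 to 1.16) also turned in sign. With the longest transcript as length, the median over libraries was 63.621% for the Mapk9 share of the JNK genes, against 70.574%. Likewise the Map2k2 median was 25.8%, against 16.7%, and the Map2k4 median 21.0%, against 25.1%. In WT replicate 1 the Mapk13 and Mapk14 shares were 36.5% and 37.4%, against 42.7% and 38.5%, so their order turned. The shares of Map2k1, Map2k4, Mapkapk2 and Mapkapk3 stayed apart between the genotypes.

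Libraries of both genotypes share the numbers 1 and 2, but nothing says that a number marks a pair, and the differences of replicate 1 and 2 correlated at 0.19 between WT and KO skin over genes. With the replicate block 0 members passed, 5 were higher and 10 lower at unadjusted p, 13 pathway genes were higher and 9 lower, and Mapk9 stood at 0.0047. Over all genes 2236 were higher and 1762 lower at unadjusted p with the block, against 1995 and 1807 without it. Members under 1 CPM rest on few reads.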
